A study of Mus musculus with 12 samples.

Results

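The transcripts of 9 germline genes, Dazl, Ddx4, Mael, Sycp3, Tex101, Slc25a31, Hormad1, Stk31 and Asz1, were followed through the reprogramming of mouse fibroblasts to pluripotent cells. The genes were picked by symbol from a table of 24098 genes, and all 9 were present. This choice, and that of the lists below, was made with earlier results of these data known. Counts set beside shares of all genes are thus descriptions and not tests. The 9 genes were listed at or near 0 FPKM (sequenced fragments per length of transcript and per size of library) in fibroblasts and through day 9. The first levels well above this were seen on day 12 in SSEA-1+ cells. In SSEA-1+ cells of day 16, 5 genes passed 1 FPKM, a level that 49.3% of all genes reached there. In the SSEA-1- cells of the same day none passed 0.140 FPKM. Of the 9 genes, 6 reached 1 FPKM, the level the study takes as expressed, in at least 1 library, as did 14178 of all 24098 genes. Slc25a31, Hormad1 and Asz1 stayed below 1 FPKM in all 12 libraries.

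Mouse embryonic fibroblasts (MEFs) with an Oct4-GFP reporter were infected with pMXs retroviruses carrying Oct4, Sox2, Klf4 and c-Myc (OSKM). Day 0 (D0) cells were MEFs the labels call wild type, and D3 cells were unsorted. The fibroblast surface protein Thy-1 was used to sort D6 and D9 cells into fractions without it (D6T-, D9T-) and with it (D6T+, D9T+), and SSEA-1, a carbohydrate on pluripotent cells, to sort D12 and D16 cells into fractions with it (D12S+, D16S+) and without it (D12S-, D16S-). Fully reprogrammed induced pluripotent stem cells (iPSCs) and wild-type ESD3 mouse embryonic stem cells (mESCs) were the end points. The study treats the Thy-1- and SSEA-1+ fractions as the successful route. The labels give a serum medium for MEFs, and a serum replacement medium with LIF, ascorbic acid, basic FGF and CHIR99021 for reprogramming, iPSCs and mESCs, so medium and time cannot be told apart between D0 and later cells. The methods of the study differ. For iPSCs and mESCs they list serum or serum replacement medium with LIF, without ascorbic acid, basic FGF or CHIR99021. For reprogramming they list these media beside the one of the labels. Each condition had 1 library, so the differences have no check by replicates, and intervals cover counting error only. Sorted fractions are mixtures of cells, in which fewer cells with a transcript and less transcript per cell cannot be told apart.

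Germline genes of this kind work in the making of eggs and sperm. They are kept silent in body cells, in large part by methylation of CpG dinucleotides (a C followed by a G) in their promoters, and this methylation is laid down in the early embryo and erased in primordial germ cells. Cells that lose DNA methylation tend to switch such genes on, and for this reason they are used as readouts of promoter methylation. A second layer of silencing uses the repressor complex of E2F6, MGA, MAX and L3MBTL2, which reads an E2F-type site and an E-box, the letters CACGTG. No methylation or protein binding was measured in the files used here.

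The promoters were therefore examined first, as 300-base windows from RefSeq (250 bases before to 50 after the start of transcription, sequences of GRCm38.p6). All 9 genes had a window, and each window was found once, without a mismatch, on its chromosome in NCBIM37 (mm9), the build of the expression table, which gives the positions below. The 9 windows held 15 (Sycp3) to 38 (Ddx4) CpG, with a median of 24, against a median of 7 over the windows of 27018 genes and of 14 over the 16889 of them that are in the expression table. The ratio of observed to expected CpG was 0.666 for Sycp3 and 0.978 for Ddx4, the lowest and the highest of the 9, and the median was 0.388 over all genes and 0.584 over those in the table. CACGTG was found in 6 of the 9 windows and in 7.24% of all windows. TCCCGC, searched on both strands (GCGGGA on the other strand) as an E2F-type site, was found in 5 of the 9 windows and in 20.0% of all windows. Ddx4, Mael, Sycp3, Slc25a31 and Hormad1 held both, as did 2.05% of all windows. Among genes of the table, 8.21% held CACGTG, 25.9% held TCCCGC and 2.79% held both. Among the 8353 windows with 15 to 38 CpG, 11.5% held CACGTG, 43.0% held TCCCGC and 4.74% held both, so windows rich in CpG held both sets of letters more often than all windows did. Stk31 held CACGTG alone, and Dazl, Tex101 and Asz1 held neither. None of the 14 matches overlapped another. A match of letters is a description and not a binding site.

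**Figure D1:**
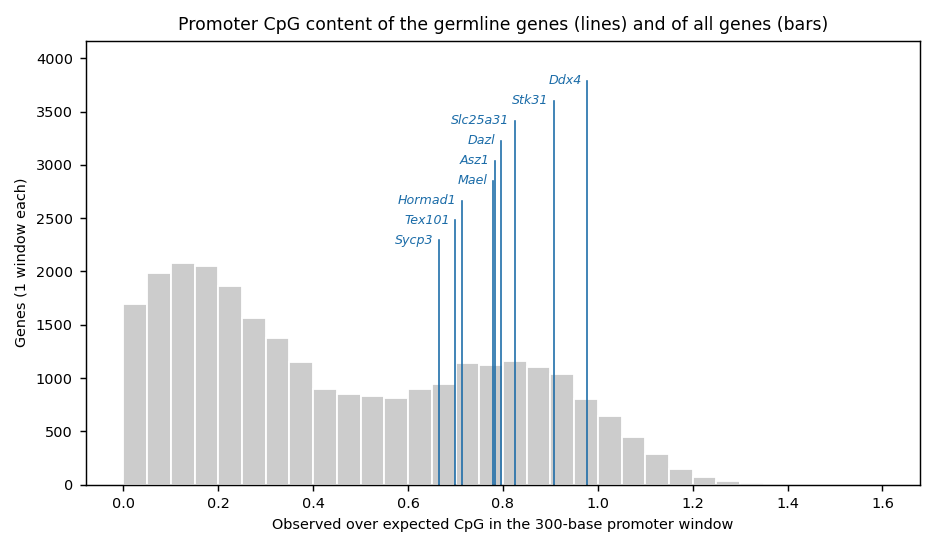
Ratio of observed to expected CpG in the 300-base promoter window (x axis). Grey bars count genes, 1 window for each of 27018 genes, and each blue line is 1 of the 9 germline genes, whose height serves only to carry the name. All 9 lines lie between 0.666 and 0.978, above the medians of all genes at 0.388 and of genes in the expression table at 0.584.

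For 4 of the genes with both kinds of letters, the 250 bases before the start are given 5′ to 3′ on the strand of the gene, with the E-box and the E2F-type letters of either strand in capitals, to show how the matches sit near the start.
Mael, chr1:168168876-168169125, minus strand: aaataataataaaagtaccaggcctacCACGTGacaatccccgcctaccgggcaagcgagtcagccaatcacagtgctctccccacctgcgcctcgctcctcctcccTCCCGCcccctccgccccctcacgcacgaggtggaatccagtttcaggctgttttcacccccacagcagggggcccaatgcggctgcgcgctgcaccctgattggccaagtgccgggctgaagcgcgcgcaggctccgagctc
Ddx4, chr13:113442519-113442768, minus strand: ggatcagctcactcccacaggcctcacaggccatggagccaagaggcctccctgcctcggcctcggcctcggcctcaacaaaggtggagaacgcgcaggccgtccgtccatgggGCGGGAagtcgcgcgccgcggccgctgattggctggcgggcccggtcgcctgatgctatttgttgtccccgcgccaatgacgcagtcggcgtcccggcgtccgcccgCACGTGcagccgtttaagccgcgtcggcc
Sycp3, chr10:87922082-87922331, plus strand: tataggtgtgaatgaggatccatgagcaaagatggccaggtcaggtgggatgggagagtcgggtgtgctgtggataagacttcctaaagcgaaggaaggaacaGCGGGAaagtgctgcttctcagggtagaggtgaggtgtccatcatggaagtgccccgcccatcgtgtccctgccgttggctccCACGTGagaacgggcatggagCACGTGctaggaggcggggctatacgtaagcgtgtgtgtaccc
Hormad1, chr3:95363349-95363598, plus strand: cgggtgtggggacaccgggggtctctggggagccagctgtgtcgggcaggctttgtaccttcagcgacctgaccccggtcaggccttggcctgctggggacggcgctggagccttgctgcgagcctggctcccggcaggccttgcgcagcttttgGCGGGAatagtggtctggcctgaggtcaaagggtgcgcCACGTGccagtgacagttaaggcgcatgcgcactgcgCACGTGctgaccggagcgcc

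In Sycp3 and Hormad1 there were 2 copies of CACGTG, the farther ones beginning at -64 and -57 from the start, whereas in Mael it began at -223. The same stretch of Dazl, the gene with the highest level in mESCs after Mael, holds neither set of letters and is shown with each CpG in capitals, to show where these targets of methylation lie.
Dazl, chr17:50432946-50433195, minus strand: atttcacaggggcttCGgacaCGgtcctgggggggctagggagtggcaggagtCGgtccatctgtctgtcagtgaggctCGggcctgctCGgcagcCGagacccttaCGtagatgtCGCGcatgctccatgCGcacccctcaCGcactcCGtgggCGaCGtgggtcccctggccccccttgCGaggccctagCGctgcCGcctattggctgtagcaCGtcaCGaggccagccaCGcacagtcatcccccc

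In mm9, Dazl lies on chromosome 17 (50418719 to 50432924), Ddx4 on chromosome 13 (113388541 to 113442518), Mael on chromosome 1 (168131516 to 168168875), Tex101 on chromosome 7 (25453031 to 25457069) and Asz1 on chromosome 6 (18000964 to 18059061), all on the minus strand. On the plus strand lie Sycp3 on chromosome 10 (87922314 to 87935981), Slc25a31 on chromosome 3 (40512777 to 40529515), Hormad1 on chromosome 3 (95363599 to 95391593) and Stk31 on chromosome 6 (49345603 to 49419500). They are spread over 7 chromosomes and are all annotated as protein coding. Sycp3 overlaps Chpt1 of the opposite strand, and Stk31 overlaps Gm17060, an annotated pseudogene of the opposite strand. Chpt1 was between 2.21 and 5.42 FPKM in every library while Sycp3 was listed at 0 in 6 of them.

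By their markers, the D0 and iPSC libraries stood where their labels put them. D16S+ had the lowest total of FPKM (484968) and D0 the highest (648264). From D0 to iPSCs, all 6 fibroblast markers were lower and all 6 pluripotent cell markers higher, each by 2-fold or more. Total fragments were not used here, but low FPKM values fall on steps that are worth 1 fragment. From these steps the depth relative to D0 lay between 0.967 in D9T+ and 1.56 in D6T-, and the number of fragments behind a value could be estimated for 8 of the 9 genes, all but Hormad1. This takes the smallest step to be 1 fragment.

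Dazl and Ddx4 are RNA regulators of germ cells. Dazl encodes an RNA-binding protein that promotes translation, and it had 0.0166 FPKM in D0 and was listed at 0 in D3, D6T-, D9T-, D6T+, D9T+ and D12S-. It was at 0.447 FPKM in D12S+, 2.78 in D16S+, 5.17 in iPSCs and 5.15 in mESCs, and at 0.0664 in D16S-. These values stand for about 1 fragment in D0, 28 in D12S+, 254 in D16S+, 341 in iPSCs, 320 in mESCs and 4 in D16S-. Dazl was thus highest in the SSEA-1+ and end-point libraries, near 0 in the other 8, and close to equal in iPSCs and mESCs.

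Ddx4, the germ cell RNA helicase also called Vasa, was the only one of the 9 with a value above 0 in all 12 libraries. It was at 0.0524 FPKM in D0, 0.0702 in D3, 0.0671 in D6T-, 0.0321 in D9T-, 0.353 in D12S+ and 2.34 in D16S+. It was at 1.65 FPKM in the iPSCs and at 0.916 in the mESCs. In the other fractions it was at 0.0277 FPKM in D6T+, 0.0542 in D9T+, 0.130 in D12S- and 0.140 in D16S-. The level before day 12 rests on 2 to 6 fragments a library, and the exact Poisson 95% interval for 6 fragments is 2.20 to 13.1. Ddx4 was highest in D16S+, and mESCs alone of the 3 highest libraries were below 1 FPKM.

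Mael and Asz1 act in the germ granule, where the piRNA pathway silences transposons, and Stk31 is set beside them as a Tudor-domain protein. Mael was at 0.0329 FPKM in D0 and 0.0211 in D6T-, about 1 fragment each, and was listed at 0 in D3, D9T-, D6T+, D9T+ and D12S-. It was at 0.697 FPKM in D12S+, 5.97 in D16S+, 4.51 in iPSCs, 6.14 in mESCs and 0.0988 in D16S-. The value in mESCs was the highest of any of the 9 genes in any library. Asz1, a germ granule protein with ankyrin repeats, was listed at 0 in 9 libraries and was at 0.210 FPKM in D16S+, 0.0264 in iPSCs and 0.196 in mESCs. These are about 11, 1 and 7 fragments. Asz1 was the lowest of the 9 genes in D16S+, iPSCs and mESCs. Stk31, which also has a kinase-like domain, was at 0.0148 FPKM in D0, 0.114 in D12S+, 0.472 in D16S+ and 0.0297 in D16S-. It was at 1.55 FPKM in iPSCs and 0.446 in mESCs and was listed at 0 in the remaining 6 libraries. Stk31 passed 1 FPKM in iPSCs alone.

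Sycp3 and Hormad1 act on meiotic chromosomes. Sycp3, a component of the synaptonemal complex, was at 0.0475 FPKM in D0 and 0.0303 in D6T-, about 1 fragment each, and was listed at 0 in D3, D9T-, D6T+, D9T+, D12S- and D16S-. It was at 0.547 FPKM in D12S+, 3.43 in D16S+, 1.30 in iPSCs and 1.06 in mESCs. Sycp3 was highest in D16S+, above both end points. Hormad1, which marks unsynapsed chromosome axes, was listed at 0 in 8 libraries. It was at 0.259 FPKM in D12S+, 0.758 in D16S+, 0.453 in iPSCs and 0.509 in mESCs. The 4 libraries in which it was listed above 0 are the ones in which the other genes of the group were highest, except Asz1, which was listed at 0 in D12S+.

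Tex101 and Slc25a31 serve sperm. Tex101 encodes a germ cell surface glycoprotein and was listed at 0 in D0, D3, D6T-, D9T- and D6T+. It was at 0.490 FPKM in D12S+, 3.25 in D16S+, 5.69 in iPSCs and 3.22 in mESCs. In the other fractions it was at 0.0525 FPKM in D9T+, 0.0475 in D12S- and 0.102 in D16S-, which are 1 to 2 fragments each. Tex101 had the highest level of the 9 in iPSCs. Slc25a31, is the testis form of the mitochondrial ADP/ATP carrier. It was at 0.0450 FPKM in D12S+, about 2 fragments, and at 0.774 in D16S+, 0.449 in iPSCs and 0.704 in mESCs. It was listed at 0 in D0, D3, D6T-, D6T+ and D12S-, and stood at 0.0215 FPKM in D9T-, 0.0242 in D9T+ and 0.0234 in D16S-, about 1 fragment each.

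**Figure D2:**
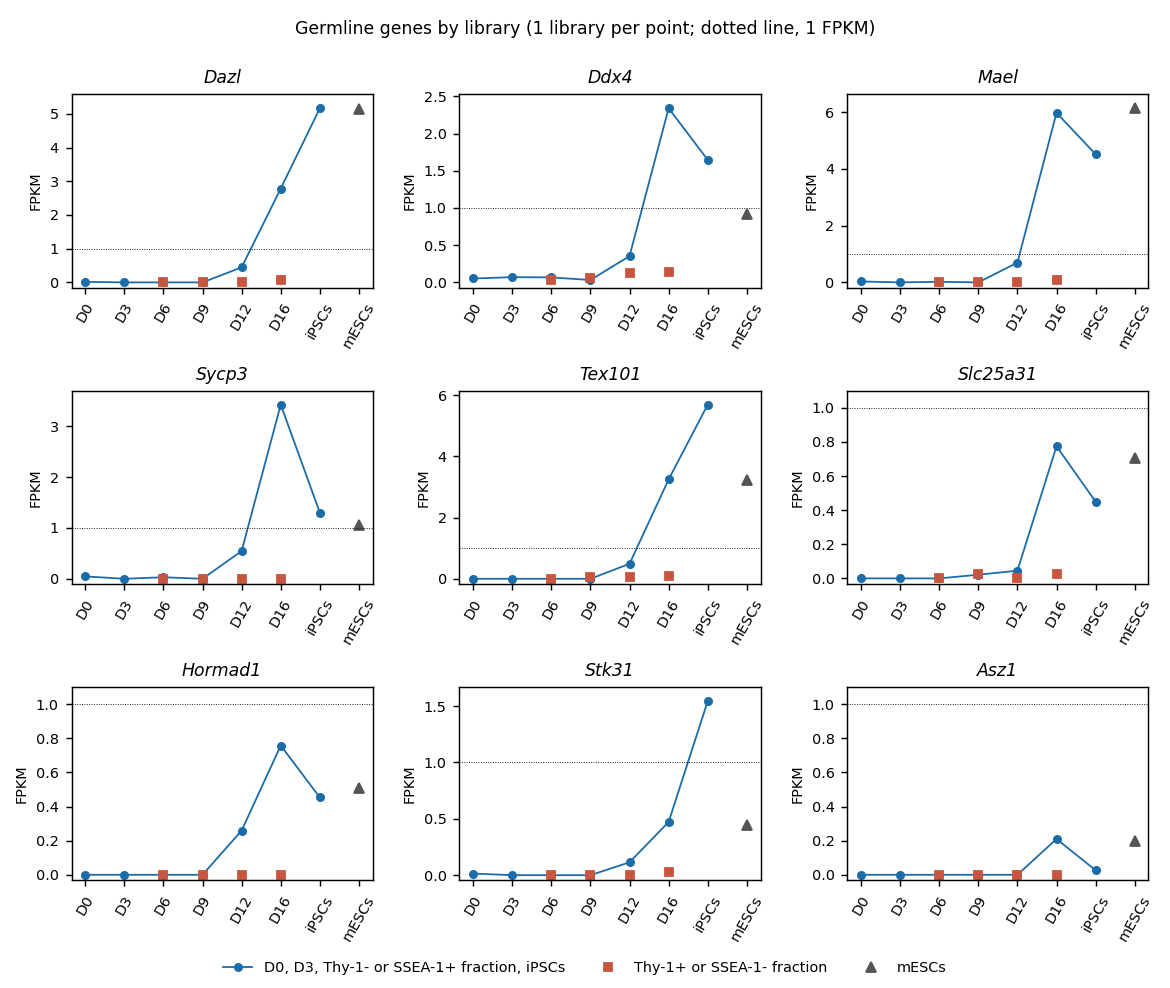
FPKM (y axis, a linear scale of its own for each gene) of the 9 germline genes by day and cell type (x axis), 1 library per point. Blue circles joined by a line are D0, D3, the fractions of the successful route and iPSCs, red squares the other fraction of each sorted day (Thy-1+ or SSEA-1-), and the grey triangle mESCs. On day 12 the line reaches 0.114 to 0.697 FPKM for 7 genes, 0.0450 for Slc25a31 and 0 for Asz1, and the red squares stay at or below 0.140 FPKM.

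The fragments of the 8 genes with an estimate were then summed. There were 7 fragments in D0, 6 in D3, 8 in D6T- and 3 in D9T-, then 103 in D12S+, 1045 in D16S+, 883 in iPSCs and 723 in mESCs. In the unsuccessful route there were 2 fragments in D6T+, 5 in D9T+, 9 in D12S- and 20 in D16S-. Scaled for depth, D12S+ held 36.0 times as many as D9T- (95% counting interval 12.0 to 177), or 86.0 times without Ddx4 (15.0 to 3436). D9T- was sorted on Thy-1 and D12S+ on SSEA-1, so day and sorting marker cannot be told apart in this ratio. For its depth, D16S+ held 6.99 times as many as D12S+ (5.70 to 8.64). Ddx4 made up a large part of the low counts, 6 of 6 fragments in D3 and 8 of 9 in D12S-, and without it the sums were 0 in D3, 1 in D9T-, 1 in D12S-, 12 in D16S- and 82 in D12S+.

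**Figure D3:**
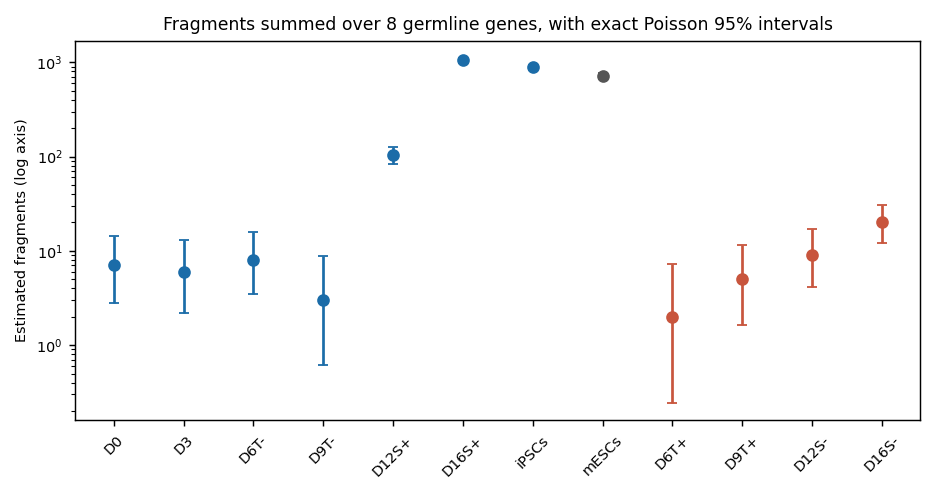
Estimated fragments (y axis, log scale) summed over 8 germline genes in each library (x axis), with exact Poisson 95% intervals. Blue marks D0, D3, the Thy-1- or SSEA-1+ fractions and iPSCs, red the Thy-1+ or SSEA-1- fractions, and grey mESCs. The sums lie between 2 and 20 in 8 libraries and between 103 and 1045 in D12S+, D16S+, iPSCs and mESCs.

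To ask which genes separate the end points, differences of log2(FPKM + 1) were taken. This scale understates the change of low genes. Between D0 and iPSCs, 6 of the 9 genes were at least 2-fold higher in iPSCs and 0 lower, where 18.7% of the 14178 genes with 1 FPKM in at least 1 library were higher and 21.6% lower. The median difference was 1.33, against 0.03 over those genes. The 3 genes short of 2-fold were Slc25a31, Hormad1 and Asz1, which cannot reach it on this scale while below 1 FPKM. Between D0 and D16S+, 5 of the 9 were at least 2-fold higher and 0 lower, with a median difference of 1.67. The shares were 20.0% and 20.9% of genes with 1 FPKM (11.8% and 12.3% of all 24098 genes). Stk31 was the gene past 2-fold in iPSCs only. Both comparisons share the D0 library, and D16S+ and iPSCs each enter 3 of the 8 comparisons made. The modelled intervals of cuffdiff started at 0 in all 108 values of the 9 genes, so they lay apart in no comparison.

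The sorted fractions of each day were then compared. In D16S+, 5 of the 9 genes (Dazl, Ddx4, Mael, Sycp3 and Tex101) were at least 2-fold higher than in D16S-, with 11.8% of genes with 1 FPKM higher and 15.2% lower. Over all 24098 genes, without the filter that 3 of the 9 fail, 6.93% were higher and 8.97% lower. All 9 were higher by some amount, a count for which no share of all genes was taken. The median difference was 1.55 on the log2 scale, against -0.02 over the 14178 genes with 1 FPKM. As a ratio of FPKM, Mael was 60.5-fold higher in D16S+ (95% counting interval 20.5 to 295), Dazl 42.1-fold (16.2 to 156), Tex101 32.1-fold (8.66 to 269) and Ddx4 16.7-fold (8.33 to 39.3). Stk31 was 15.9-fold higher (4.17 to 135). Sycp3, listed at 0 in D16S-, was at least 24.1-fold higher in D16S+ when D16S- is set at 3 fragments. Summed over 8 genes, D16S+ held 34.6 times the fragments of D16S- for its depth (22.3 to 56.9). In D16S-, 6 of the 9 genes were above 0, as were 5 in D0, and no share of all genes was taken for these counts. The 8 genes with an estimate had 20 fragments in D16S- (95% counting interval 12.2 to 30.9) and 7 in D0 (2.81 to 14.4). Ddx4 supplied 8 of the 20.

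On day 12 no member passed 0.697 FPKM, so a 2-fold difference could not occur on the log2(FPKM + 1) scale. The count of 0 of 9 on that scale thus says nothing. Of genes with 1 FPKM, 4.79% were higher and 3.03% lower in D12S+ than in D12S- (2.82% and 1.78% of all 24098 genes). With a pseudocount of 0.1 the count was 6, but no share of all genes was taken at that setting. By FPKM, 8 genes were higher in D12S+, Slc25a31 by 2 fragments against 0, and Asz1 was listed at 0 in both. Dazl was at least 9.65-fold and Mael at least 7.57-fold higher in D12S+ with D12S- set at 3 fragments, and Ddx4 was 2.71-fold higher (1.15 to 7.07). The 8 genes together had 103 fragments in D12S+ and 9 in D12S-, a depth-scaled ratio of 11.8 (5.99 to 26.6). Ddx4 supplied 8 of the 9, and without it the sums of 82 and 1 give a ratio of 84.7 (14.8 to 3384).

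For the fractions sorted on Thy-1, no difference was detectable at this depth. No member passed 0.0671 FPKM in them, so a 2-fold difference could not occur on the log2(FPKM + 1) scale, and the count of 0 of 9 says nothing. Of genes with 1 FPKM, 1.81% were higher and 6.45% lower in D9T- than in D9T+ (1.07% and 3.79% of all 24098 genes). The 8 genes had 3 fragments in D9T- and 5 in D9T+, a depth-scaled ratio of 0.532 (0.0827 to 2.74). In D6T- and D6T+ the count was also 0 of 9, with 8 and 2 fragments and a depth-scaled ratio of 3.23 (0.644 to 31.2). Of genes with 1 FPKM, 2.93% were higher and 9.47% lower in D6T- (1.72% and 5.57% of all 24098 genes).

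The end points were also set against each other. Between iPSCs and mESCs, 0 of the 9 genes were 2-fold apart on the log2(FPKM + 1) scale. Of genes with 1 FPKM, 6.79% were higher and 7.41% lower in iPSCs (4.00% and 4.36% of all 24098 genes). Of the 9, 5 were higher in iPSCs and 4 lower, and the median difference was 0.01. By FPKM, Stk31 was 3.46-fold higher in iPSCs than in mESCs (2.31 to 5.33), Ddx4 1.80-fold (1.28 to 2.55) and Tex101 1.78-fold (1.31 to 2.45). Mael was at 0.736 of its mESC level in iPSCs (0.590 to 0.916), Slc25a31 at 0.638 (0.349 to 1.15) and Asz1 at 0.135 (0.00299 to 1.05), the last 2 within counting error. The ratio for Dazl was 1.00 (0.859 to 1.17) and for Sycp3 1.23 (0.690 to 2.22), so neither was apart beyond counting error. Between iPSCs and D16S+, on the log2(FPKM + 1) scale, 0 of the 9 were 2-fold higher or lower. The shares were 4.38% and 7.77% of genes with 1 FPKM (2.58% and 4.57% of all 24098 genes). Of the 9, 3 were higher and 6 lower in iPSCs, and the median difference was -0.27. Set against their D16S+ level by FPKM, 5 of the lower genes were at 0.703 for Ddx4 (0.549 to 0.896), 0.755 for Mael (0.614 to 0.925), 0.380 for Sycp3 (0.245 to 0.573), 0.579 for Slc25a31 (0.330 to 0.982) and 0.125 for Asz1 (0.00291 to 0.863), the last from 1 fragment in iPSCs. The sixth, Hormad1, had no estimate of fragments. Of the 3 higher genes, Stk31 was 3.28-fold (2.32 to 4.69), Dazl 1.85-fold (1.57 to 2.19) and Tex101 1.75-fold (1.33 to 2.31) higher in iPSCs. All 8 genes with an estimate thus differed between these libraries beyond counting error, 3 in one direction and 5 in the other.

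The genes differed in their order of levels. Ddx4, Sycp3, Slc25a31, Hormad1 and Asz1 were highest in D16S+, Dazl, Tex101 and Stk31 in iPSCs, and Mael in mESCs. The ratio of mESCs to D16S+ was 1.03 for Mael (95% counting interval 0.848 to 1.24) and 0.981 for Tex101 (95% counting interval 0.705 to 1.36), so these neighbouring levels did not differ beyond counting error, nor did those of Dazl in iPSCs and mESCs. The intervals of the same ratio for Slc25a31 (0.560 to 1.45), Stk31 (0.582 to 1.52) and Asz1 (0.306 to 2.63) also held 1, while those for Dazl, Ddx4 and Sycp3 did not. Over the 12 libraries, Pearson's r between log2(FPKM + 1) of 2 members ranged from 0.463 for Stk31 and Asz1 to 0.987 for Dazl and Tex101, with a median of 0.928 over 36 pairs. These points share 4 libraries with high values and 8 near 0, which sets most of r.

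The level of each gene as a percentage of its own level in D16S+ placed the group beside 6 pluripotent cell markers (Nanog, Esrrb, Zfp42, Dppa5a, Tdgf1 and Fgf4). In D9T-, the 9 genes were at a median of 0% and at most 2.77% (Slc25a31, 1 fragment), and the 6 markers at 1.98% to 9.64%. In D12S+ the 9 genes were at a median of 15.1% (0% to 34.2%) and the markers at a median of 46.5% (26.1% to 73.7%). Hormad1 at 34.2% was above Zfp42 at 26.1%, so the ranges overlapped. In D16S- the medians were 2.38% and 4.19%, with overlapping ranges.

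**Figure D4:**
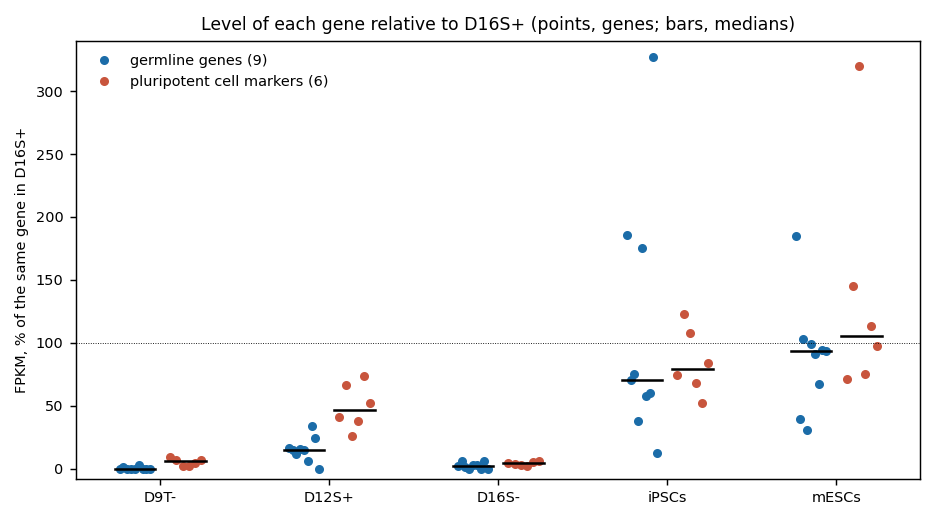
FPKM of each gene as a percentage of its FPKM in D16S+ (y axis) in 5 libraries (x axis), for the 9 germline genes (blue) and 6 pluripotent cell markers (red). Points are genes and bars medians. In D12S+ the germline genes lie between 0% and 34.2% and the markers between 26.1% and 73.7%, and in iPSCs Stk31 stands at 327%.

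Other germline genes were described next, from lists that leave out the 9 genes. Of 52 genes of the piRNA pathway, of meiosis and of other germline promoters known to be methylated in body cells, 34 reached 1 FPKM in at least 1 library, as did 14178 of all 24098 genes. In D16S+ against D16S-, 26 of the 52 were at least 2-fold higher and 0 lower, beside 11.8% and 15.2% of genes with 1 FPKM and 6.93% and 8.97% of all genes. In D12S+ against D12S-, 16 were higher and 0 lower, beside 4.79% and 3.03% of genes with 1 FPKM (2.82% and 1.78% of all genes). In D9T- against D9T+, 1 was higher and 0 lower, beside 1.81% and 6.45% (1.07% and 3.79% of all genes). In iPSCs against mESCs, 2 were higher and 10 lower, beside 6.79% and 7.41% (4.00% and 4.36% of all genes). For iPSCs against D0, the counts of the single lists stand beside 18.7% higher and 21.6% lower among genes with 1 FPKM, and 11.0% and 12.7% among all genes.

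Among 17 piRNA pathway genes, 7 were at least 2-fold higher and 1 lower in iPSCs than in D0. Fkbp6, a co-chaperone of the pathway, was at 0.0424 FPKM in D0, 1.31 in D12S+, 11.4 in D16S+, 23.3 in iPSCs and 0.335 in D16S-. Tdrd12, a Tudor-domain protein, was listed at 0 in D0 and at 20.9 FPKM in iPSCs. Piwil2, a PIWI protein that binds piRNAs, was earlier than the 9 genes, at 2.72 FPKM in D9T- and 3.38 in D16S-. Tdrd7, also a Tudor-domain protein, was the lower one, at 19.5 FPKM in D0 and 2.14 in iPSCs, so the genes of this pathway differed in direction. Piwil4 was below 1 FPKM in D0 (0.718) and in iPSCs (0.202).

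Among 22 meiotic genes, 8 were at least 2-fold higher and 0 lower in iPSCs than in D0. Stra8, a retinoic acid target needed for entry into meiosis, was at 0.0352 FPKM in D0, 12.5 in D16S+, 0.776 in D16S-, 36.7 in iPSCs and 138 in mESCs. Syce2, of the synaptonemal complex, was at 4.72 FPKM in D0 and 34.0 in iPSCs. Rec8, the meiotic cohesin, followed another course, with 2.79 FPKM in D0, 21.2 in D3 and 72.0 in D16S- against 41.8 in D16S+. Prdm9 was at 0.415 FPKM in D0 and 0.265 in iPSCs. Of the 22, 11 never reached 1 FPKM, a group that includes Sycp1, Sycp2, Spo11 and Meiob.

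Of 15 other germline genes with promoters methylated in body cells, 8 were at least 2-fold higher in iPSCs than in D0 and 11 in D16S+ than in D16S- (11.8% of genes with 1 FPKM), with 0 lower in either. Dnmt3l, the cofactor of the de novo methyltransferases, was at 4.36 FPKM in D0, 172 in D12S+ and 393 in iPSCs against 10.1 in D16S-. Tex19.1 was at 10.7 FPKM in D9T- and 114 in D16S+, and at 17.6 in D16S-. Tuba3a, a testis tubulin, was at 0.217 FPKM in D9T-, 17.4 in D12S+, 69.4 in D16S+ and 0.914 in D16S-. The 2 genes Tdrd1 and Mov10l1 stand in this list and in that of the piRNA pathway.

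Of 11 genes of early germ cell specification, which pluripotent cells also use, 8 were at least 2-fold higher and 1 lower in iPSCs than in D0. Dppa4 was listed at 0 in D0 and at 101 FPKM in iPSCs, Dppa2 was at 0.102 and 28.6 FPKM, and Dppa3 was listed at 0 in D0 and was at 85.0 in D16S+ and 17.9 in iPSCs. The lower gene was Ifitm3, an interferon-induced membrane protein, at 2716 FPKM in D0 and 341 in iPSCs.

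Of 18 repressors of germline genes, 9 were at least 2-fold higher and 0 lower in iPSCs than in D0, and 8 were higher and 1 lower in D16S+ than in D16S-, beside 11.8% and 15.2% of genes with 1 FPKM. Dnmt3b, a de novo methyltransferase, was at 0.501 FPKM in D0, 40.2 in D12S+, 52.2 in D16S+ and 156 in iPSCs, against 5.69 in D16S-. Hells, a remodeller needed for DNA methylation, was at 1.20 FPKM in D0 and 11.8 in iPSCs, and L3mbtl2 at 17.4 and 93.1 FPKM. E2f6 was at 14.2 FPKM in D0, 11.1 in D16S+, 14.9 in D16S- and 6.71 in iPSCs. Ring1, of the Polycomb complexes, was the repressor at least 2-fold lower in D16S+, at 8.75 FPKM against 19.6 in D16S-, and was at 11.5 in D0 and 8.73 in iPSCs. Transcript levels say nothing of methylation at the promoters.

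**Figure D5:**
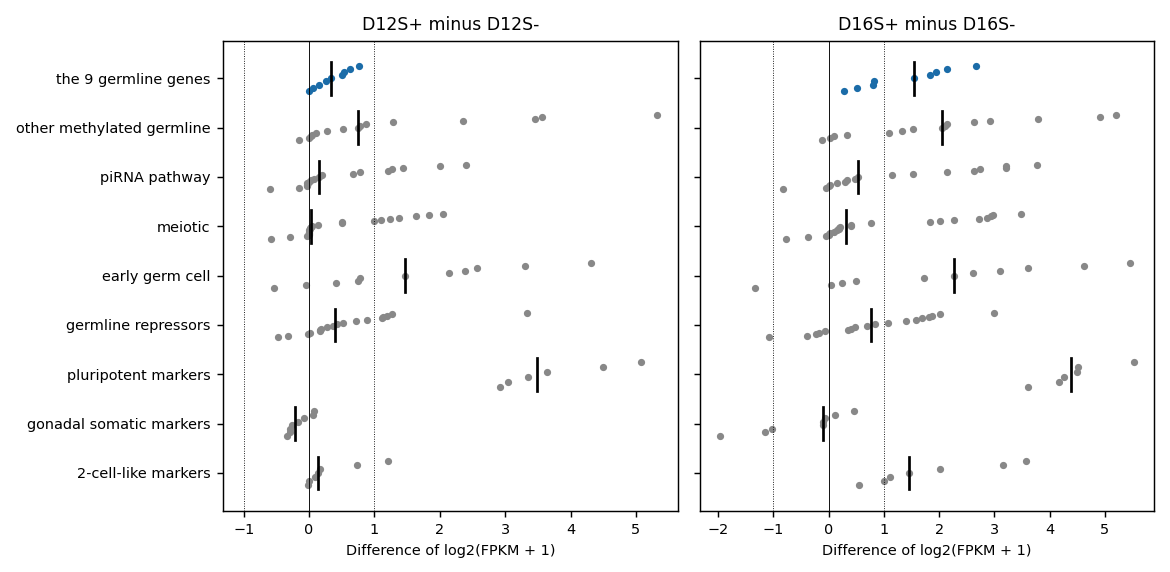
Difference of log2(FPKM + 1) between the SSEA-1+ and SSEA-1- fraction (x axis) on day 12 (left) and day 16 (right). Each point is a gene of the list named on the y axis, black bars are medians and dotted lines mark 2-fold. The median of the 9 germline genes (blue) is 0.33 on day 12 and 1.55 on day 16, and that of the gonadal somatic markers is -0.21 and -0.10.

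Markers of other cells that such cultures could hold were read beside these values. Of 8 markers of gonadal somatic cells, 0 were 2-fold higher and 3 lower in D16S+ than in D16S-. The shares were 11.8% and 15.2% of genes with 1 FPKM (6.93% and 8.97% of all 24098 genes). The sum of the 8 markers was 16.5 FPKM in D16S+ and 42.9 in D16S-. Gata4, a factor of gonadal and other tissues, was at 0.480 FPKM in D0, 1.55 in D16S+, 0.862 in D16S-, 1.77 in iPSCs and 11.1 in mESCs. Inha, the inhibin subunit, was at 5.29 FPKM in D0, 6.42 in D16S+, 7.01 in D16S- and 4.32 in iPSCs. Star, which carries cholesterol into mitochondria, was at 19.3 FPKM in D0, 0.977 in D16S+ and 3.40 in D16S-. Amh, made by Sertoli cells, was at most 0.689 FPKM in any library, while Cyp11a1, a steroid-making enzyme, was at 6.74 in D16S+ and 29.2 in D16S-. Their part in the levels of the germline genes was not tested. Of 7 markers of 2-cell-like cells, a rare state in pluripotent cultures, 6 were 2-fold higher in D16S+ than in D16S- and 6 were 2-fold higher in iPSCs than in mESCs. Eif1a passed only in the first comparison, at 27.8 FPKM in D16S+ and 13.3 in D16S-. Zfp352 passed only in the second, at 1.73 FPKM in iPSCs and 0.0211 in mESCs. The shares higher were 11.8% and 6.79% of genes with 1 FPKM (6.93% and 4.00% of all 24098 genes). Tcstv1 was at 19.4 FPKM in D16S+, 37.2 in iPSCs and 1.07 in mESCs. The sum of the 7 was 65.5 FPKM in D16S+, 99.1 in iPSCs and 17.4 in mESCs, and 14.5 in D16S-, where Zscan4d and Zfp352 were listed at 0. Eif1a, at 11.2 FPKM in D0, made up most of the low sums, and without it the other 6 summed to 37.7 FPKM in D16S+, 76.9 in iPSCs, 3.52 in mESCs and 1.26 in D16S-. Whether such cells carry the germline transcripts was not tested. The sum of the 9 germline genes was 20.0 FPKM in D16S+, 20.8 in iPSCs and 18.3 in mESCs, with single genes differing in both directions.

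Lastly, the genes with the most similar course were sought among 14172 other genes with 1 FPKM in at least 1 library, by Pearson's r of log2(FPKM + 1) over the 12 libraries. For the mean course of the 9 genes these were Btbd18 (r = 0.993), Foxr1 (0.992), Gm11545 (0.991), Rnf17 (0.990) and Lincenc1 (0.990). Rnf17, a Tudor-domain protein of germ granules that is also in the piRNA list, was at 0.150 FPKM in D12S+, 1.90 in D16S+, 1.33 in iPSCs and 0.00916 in D16S-. Lincenc1 had a higher level, with 29.3 FPKM in D16S+ and 0.254 in D16S-. For single genes the most similar were Fkbp6 for Dazl (r = 0.998), BC055111 for Ddx4 (0.983), Rhox1 for Mael (0.995), Xlr4a for Sycp3 (0.991), Gm11545 for Tex101 (0.996) and Scd3 for Stk31 (0.999). Scd3, a fatty acid desaturase, shared with Stk31 a level in iPSCs (3.68 FPKM) above those of D16S+ (0.942 FPKM) and mESCs (0.896 FPKM). As with the members, 4 high libraries set most of these values.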

How the data were processed

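The authors made TruSeq libraries from mRNA, read them by HiSeq, mapped the reads to mm9 with STAR, removed reads with more than 2 mismatches or several loci, and estimated expression with cuffdiff. The deposited values are FPKM with the ends of the interval that cuffdiff gives to each. Versions, annotation and library scaling are not given in the sources used here. The labels name a stranded kit and the methods another TruSeq kit. Strand is thus uncertain for the overlapping genes, Sycp3 with Chpt1 and Stk31 with Gm17060. Genes with near-identical copies lose reads by the filter on loci. A further 12 columns of status words were read only to check that all 108 values of the members were marked OK.

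Columns were matched to libraries by day and sign of the sorting marker. Values were analysed as log2(FPKM + 1) in Python 3.11.15, and genes with 1 FPKM in at least 1 library were the background. With 1 library per condition no test was possible, and counts are of genes at least 2-fold apart. Relative depth is the most common ratio of values under 0.5 FPKM between a library and D0. A fragment step was accepted for a gene where all its values under 30 steps were whole within 0.1, with the smallest value taken as 1 to 3 steps. The largest departure among 35 such values was 0.0579. Intervals are exact 95% Poisson or, for ratios, Clopper-Pearson intervals, and a gene listed at 0 was set at 3 fragments for lower bounds. The functions for depth, steps and fold counts were tested on simulated data. Gene positions are from the GENCODE M1 annotation, 1-based, and motifs were counted in 1 RefSeq window per gene.

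The members and lists were chosen with earlier results of these data known. From each list, the text names genes that reached 1 FPKM, at most the 3 with the largest rise and the 2 with the largest fall from D0 to iPSCs, and all 9 members. Sycp1, Sycp2, Spo11, Meiob, Amh, Cyp11a1, Eif1a, Zfp42, Zscan4d and Zfp352 were named after their values were seen, and the sums without Ddx4 and without Eif1a were also chosen then. The genes most similar in course are the 5 closest to the mean of the members and the closest to each member that reached 1 FPKM. Of the 2-cell-like markers, 7 of 8 were matched in the table. Alternatives were the pseudocount, the fold, the expression threshold, the filter and 2 scalings.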

Additional observations from a re-analysis of the deposited data

How the results depend on the processing

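Of 43 recomputed counts of members, 35 stayed within 1.5 times the reported count, and 8 moved. Among the 35 are recounts that could not move, those without the filter and those at 4-fold where the count was already 0. With a pseudocount of 0.1, 9 members were at least 2-fold higher in D16S+ than in D0 and 9 than in D16S-, 6 were higher in D12S+ than in D12S-, and 1 was higher in iPSCs than in mESCs and 1 than in D16S+. At 4-fold, 3 members were higher in iPSCs than in D0, 3 in D16S+ than in D0 and 2 in D16S+ than in D16S-. No shares of all genes were taken at this pseudocount or at 4-fold, so these counts have no background beside them. At thresholds of 0.5 and 2 FPKM, 8 and 5 members counted as expressed in at least 1 library, in place of 6. Scaling to the same total FPKM shifted the median of genes with 1 FPKM by 0.22 on the log2 scale in iPSCs minus D0 and by 0.36 in D16S+ minus D0, with members' medians of 1.32 and 1.79, and moved none of the counts. The median-of-ratios scaling also moved 0 of them. Without the filter, 11.0% of 24098 genes were at least 2-fold higher in iPSCs than in D0, and the members' counts are the same by construction. No paired analysis was possible because each condition had 1 library. Depth limits the 8 low libraries most, where all 8 genes with estimated fragments together rest on 2 to 20 fragments.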
